A study of Homo sapiens with 12 samples.

Results

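10 genes for surface receptors and ligands that B cells use to signal to T cells, to receive T-cell help and to die were followed in MD901, an established human line of diffuse large B-cell lymphoma. The 10 genes were CD80, CD86, CD274, PDCD1LG2, CD40, FAS, TNFRSF14, TNFRSF13B, TNFRSF13C and CD58. Each was taken as the row of the deposited RNA table that carried its symbol, out of 24181 rows. PDCD1LG2 stood on 2 rows, of which the one with the higher mean over the 12 libraries was used. The study profiled total RNA to ask how a short hairpin RNA against CREBBP, an acetyltransferase of histones and other proteins, alters expression. All cells came from MD901, which carries wild-type CREBBP, and grew in IMDM medium with 10% serum. There were 4 groups of 3 libraries, labelled scramble, shCREBBP.1027, shCREBBP.3753 and shCREBBP.572. One field of the labels writes the first of these hairpins as shCREBBP.11027. All 3 hairpin groups share the same 3 scramble libraries as control. Neither the promoter that drove the hairpins nor any clonal selection is given in the sources used here. The labels do not say whether replicates were separate cultures, so each p-value rests on variation among libraries that may be technical replicates.

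B7 ligands on a B cell meet receptors on T cells. CD80 and CD86 bind CD28 and CTLA4, whereas CD274 (PD-L1) and PDCD1LG2 (PD-L2) bind the inhibitory receptor PD-1. Receptors of the tumour necrosis factor (TNF) family work in the other direction: CD40 receives help from T cells, FAS passes on a death signal, and TNFRSF13B and TNFRSF13C receive survival factors. TNFRSF14 (HVEM) binds BTLA and other partners, and CD58 binds CD2 on T and natural killer cells. Loss of CD58, TNFRSF14 or FAS by mutation or deletion is known in B-cell lymphomas.

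CREBBP RNA was not called lower than scramble with any of the 3 hairpins, and with shCREBBP.1027 its value was above scramble. Scramble libraries held 13.7, 7.10 and 5.82 FPKM, while those labelled shCREBBP.1027 held 11.4, 11.7 and 12.6 FPKM. The values were 5.92, 6.16 and 6.10 FPKM under the label shCREBBP.3753, and 7.99, 7.53 and 6.91 FPKM under shCREBBP.572. Averaged over hairpins, CREBBP differed from scramble on the log2 scale by -0.03 ± 0.17 (SE; limma adjusted p = 0.933). The difference was 0.47 ± 0.21 for shCREBBP.1027 (adjusted p = 0.104), -0.40 ± 0.21 for shCREBBP.3753 (adjusted p = 0.177) and -0.14 ± 0.21 for shCREBBP.572 (adjusted p = 0.697). Scramble replicates decided these calls: without scramble replicate 3, CREBBP was called lower with shCREBBP.3753 (-0.63, adjusted p = 0.0306), and without scramble replicate 1 it was called higher with shCREBBP.1027 (0.80, adjusted p = 7.3e-05). Every direction below is therefore that of libraries as labelled. Of 8 B-cell markers, 7 had a mean of at least 1 FPKM, whereas CD22 stayed under 1 FPKM in every library. The markers summed to 350 to 418 FPKM with scramble, 336 to 354 FPKM with shCREBBP.1027, 465 to 497 FPKM for shCREBBP.3753 libraries and 291 to 308 FPKM for shCREBBP.572 libraries. Of 12 T and natural killer cell markers found, 11 stayed under 1 FPKM everywhere, with sums of 1.3 to 3.55 FPKM over all libraries, and CD3D was listed at 0 throughout. Myeloid markers summed to at most 3.36 FPKM and fibroblast and epithelial markers to at most 8.12 FPKM. Scramble replicate 3 had a total of 4978528 FPKM against 538076 to 722976 in the others, although the upper quartile of its values, at 10.7 FPKM, was inside the span of 9.82 to 10.9 seen over the 12 libraries.

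Promoter sequences are shown first for the 4 members with a clear level of RNA, since the results turn on these. RefSeq entries for GRCh38.p14 (250 bases before the annotated start and 50 from it on) were found for 7 of the 10 members, and CD40, PDCD1LG2 and TNFRSF13C had none in the table used. For FAS, the most upstream of 3 entries is shown. The intervals are chr1:2556121-2556420 on the plus strand for TNFRSF14, chr10:88990548-88990847 on the plus strand for FAS, chr17:16972069-16972368 on the minus strand for TNFRSF13B and chr1:116570977-116571276 on the minus strand for CD58. Each is written 5′ to 3′ along the gene's strand, and capitals mark matches on either strand to 1 of 4 motifs: TGACG (half-site of the cyclic AMP response element), GAGGAA (core of PU.1 and SPIB sites), TTCNNNGAA (STAT site) and GGGCGG (GC box).
TNFRSF14: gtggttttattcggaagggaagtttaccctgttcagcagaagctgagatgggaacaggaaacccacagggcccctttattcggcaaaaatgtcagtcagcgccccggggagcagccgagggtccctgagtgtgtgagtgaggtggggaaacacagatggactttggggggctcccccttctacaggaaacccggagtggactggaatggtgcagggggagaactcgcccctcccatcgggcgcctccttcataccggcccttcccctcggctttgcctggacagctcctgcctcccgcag
FAS: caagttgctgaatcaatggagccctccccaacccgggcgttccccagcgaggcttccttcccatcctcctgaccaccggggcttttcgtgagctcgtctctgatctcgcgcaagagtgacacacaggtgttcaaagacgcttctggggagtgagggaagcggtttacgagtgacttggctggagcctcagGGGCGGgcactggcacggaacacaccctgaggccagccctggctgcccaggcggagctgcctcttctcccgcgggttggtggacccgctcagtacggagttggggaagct
TNFRSF13B: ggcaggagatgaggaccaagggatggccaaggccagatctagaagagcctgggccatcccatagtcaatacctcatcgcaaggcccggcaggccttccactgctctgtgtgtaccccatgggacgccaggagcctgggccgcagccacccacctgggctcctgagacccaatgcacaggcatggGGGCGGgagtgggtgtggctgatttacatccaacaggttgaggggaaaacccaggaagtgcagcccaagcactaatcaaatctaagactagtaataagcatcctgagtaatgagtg
CD58: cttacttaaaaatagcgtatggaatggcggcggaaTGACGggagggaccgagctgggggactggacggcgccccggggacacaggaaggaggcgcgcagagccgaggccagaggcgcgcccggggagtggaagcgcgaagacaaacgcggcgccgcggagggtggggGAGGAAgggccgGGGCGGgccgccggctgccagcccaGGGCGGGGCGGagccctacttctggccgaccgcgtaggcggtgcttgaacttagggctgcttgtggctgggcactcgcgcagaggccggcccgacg

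The promoter of TNFRSF14 held none of the 4 motifs in this window. That of FAS held 1 GC box, which starts at -60 from the annotated start, and that of TNFRSF13B held 1 at -66. Of the 4 promoters shown, that of CD58 had the most matches, with 3 GC boxes, of which the last 2 overlap, a TGACG match at -215 and a GAGGAA match at -83. GC content was 60.3% for TNFRSF14, 63% for FAS, 57.3% for TNFRSF13B and 71.7% for CD58. These are common letters: of 35116 promoters of this length, 45% held GGGCGG, 27.9% held GAGGAA, 24.6% held TGACG and 7.66% held TTCNNNGAA. Among the entries not shown, the first of CD86 held 2 TGACG and 3 GAGGAA matches, and that of CD274 held a TTCNNNGAA match at -125 and a GC box at -63. A match describes the letters and not a bound site.

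The levels of the 10 members fell into a group with clear RNA and a group near 0. CD58, TNFRSF13B, TNFRSF14 and FAS were present in all 12 libraries, with means above those of 79.5%, 76.7%, 64.5% and 57.9% of all rows. In scramble libraries, CD58 and TNFRSF13B overlapped at the top, and TNFRSF14 and FAS overlapped below them. With shCREBBP.1027 the 4 ranges were separate, in the order CD58, TNFRSF13B, TNFRSF14 and FAS. With shCREBBP.3753 TNFRSF14 reached the level of TNFRSF13B and their ranges overlapped, while CD58 was above both apart from its lowest library and FAS was below. With shCREBBP.572 the 4 ranges were again separate and in the same order as with shCREBBP.1027. TNFRSF13C, CD80, CD274, CD86 and CD40 had lower means than FAS in every group, and over the 12 libraries their means exceeded those of 43.8%, 37.5%, 34.6%, 34.3% and 28.5% of rows. The highest TNFRSF13C library, at 1.08 FPKM with shCREBBP.572, lay within the FAS range of that group, and neighbours among the low genes overlapped over the 12 libraries. PDCD1LG2 stood above 56% of rows through 1 library. The unit, FPKM, is scaled to transcript length, so genes can be set side by side.

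**Figure D1:**
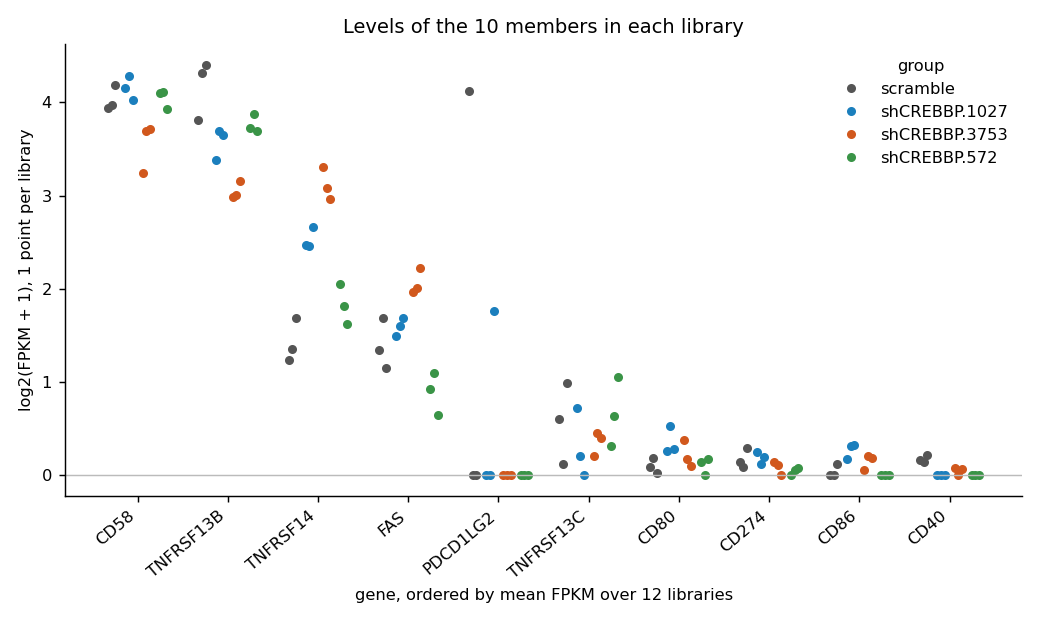
Levels of the 10 members as log2(FPKM + 1), 1 point per library, coloured by group and ordered along the horizontal axis by mean FPKM over the 12 libraries. CD58, TNFRSF13B, TNFRSF14 and FAS are above 0 in every library, and PDCD1LG2 owes its place in the order to 1 scramble library at 16.4 FPKM.

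Across the table, 11757 rows whose mean reached 1 FPKM were tested on log2(FPKM + 1), a scale that understates the change of low genes. There were 5 members that passed this filter: CD58, TNFRSF13B, TNFRSF14, FAS and PDCD1LG2. The other 5 members fell under it. In the average of the 3 hairpins minus scramble, 2 of the 5 tested members were called at a limma adjusted p under 0.05, namely TNFRSF14 higher and TNFRSF13B lower. Of all tested rows, 11.5% were called higher and 14.6% lower. Of those calls 44.1% were higher, a share that was 52.5% with quantile normalization. With shCREBBP.1027 the same 2 members were called in the same directions, against 16.5% of rows higher and 22.7% lower. Of the calls with that hairpin, 42% were higher, a share that became 52.6% with quantile normalization and 54.2% with upper quartile scaling. With shCREBBP.3753, 4 members were called, TNFRSF14 and FAS higher and TNFRSF13B and CD58 lower, against 16.1% of rows higher and 13.2% lower. With shCREBBP.572 no member was called, where 19.8% of rows were. Before adjustment, limma p with that hairpin was 0.0241 for TNFRSF14, 0.0206 for FAS and 0.0153 for TNFRSF13B. The share of all rows at such unadjusted values was not taken, so the 19.8% cannot be set against them.

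The hairpins differed from each other at 4 members. The F test between the 3 hairpin groups called TNFRSF14 (adjusted p = 1.3e-04), FAS (adjusted p = 8.2e-04), TNFRSF13B (adjusted p = 0.00376) and CD58 (adjusted p = 0.00398), in a table where 56.4% of rows were called. Between shCREBBP.3753 and shCREBBP.1027, 3 members differed, against 40.6% of rows. Between shCREBBP.572 and shCREBBP.1027, 2 members differed, against 41.5% of rows, and between shCREBBP.572 and shCREBBP.3753, 4 members differed, against 32.6% of rows. The share of higher calls was 62.4% for shCREBBP.3753 minus shCREBBP.1027 and 57.6% for shCREBBP.572 minus shCREBBP.1027. Under quantile normalization these shares were 50.3% and 49.8%, and under upper quartile scaling 45.3% and 46.6%. Exact permutation tests of 3 libraries against 3 cannot go below p = 0.1, and those of the 9 hairpin libraries against 3 cannot go below 0.00909. The latter take the 9 libraries as alike, although they come from 3 hairpins that differ among themselves, so their p-values can be too small.

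TNFRSF14, the receptor for BTLA and LIGHT, was the member with the largest called rise. Its locus (row interval chr1:2487208-2496130 on hg19) held 1.35, 1.55 and 2.22 FPKM with scramble and 4.53, 4.52 and 5.34 FPKM with shCREBBP.1027. It held 8.93, 7.48 and 6.82 FPKM with shCREBBP.3753 and 3.15, 2.52 and 2.08 FPKM with shCREBBP.572. All 6 libraries of the hairpins shCREBBP.1027 and shCREBBP.3753 were above every scramble library, whereas the lowest shCREBBP.572 library was below the highest scramble library. The mean over shCREBBP.3753 libraries, 7.74 ± 1.08 FPKM (SD, n = 3), was 4.53-fold the scramble mean of 1.71 ± 0.456 FPKM, a log2 difference of 1.70 ± 0.16 (SE; limma adjusted p = 3.7e-05; 95% interval 1.35 to 2.04). The shCREBBP.1027 mean of 4.79 ± 0.471 FPKM was 2.81-fold that of scramble (1.11 ± 0.16, SE; limma adjusted p = 2.3e-04). For shCREBBP.572 the mean was 2.58 ± 0.541 FPKM, and the log2 difference of 0.41 ± 0.16 missed the threshold (limma adjusted p = 0.0929), with an interval of 0.064 to 0.749.

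The 3 hairpins were ordered at TNFRSF14. Libraries labelled shCREBBP.3753 exceeded those labelled shCREBBP.1027 by 0.59 (limma adjusted p = 0.0107), and those labelled shCREBBP.572 were below both, by -0.70 against shCREBBP.1027 (adjusted p = 0.00386) and -1.29 against shCREBBP.3753 (adjusted p = 9.9e-05). The average over hairpins was 1.07 ± 0.13 (SE; limma adjusted p = 1.8e-04; exact permutation p = 0.0182). That call was lost (adjusted p = 0.106) when the 9 hairpin libraries, which differ among themselves, were fitted as 1 group. The difference between shCREBBP.3753 and shCREBBP.1027 was no longer called without shCREBBP.3753 replicate 1 (adjusted p = 0.0522). The shCREBBP.572 difference was called with scramble replicate 3 left out (0.54, adjusted p = 0.0383). Array weights, which count libraries far from their group less, gave a call too (0.48, adjusted p = 0.0265). An annotated antisense gene, TNFRSF14-AS1, overlaps TNFRSF14. The kit marks strand, but use of strand in the authors' assignment is not given in the sources used here, so reads of the 2 genes cannot be told apart.

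FAS, the death receptor for FAS ligand, was higher with 1 hairpin. Its locus (chr10:90694831-90775542 on hg19) held 1.53, 2.21 and 1.22 FPKM with scramble and 1.82, 2.04 and 2.22 FPKM with shCREBBP.1027. It held 2.91, 3.04 and 3.68 FPKM with shCREBBP.3753 and 0.9, 1.14 and 0.566 FPKM with shCREBBP.572. The shCREBBP.3753 libraries were above all others and the shCREBBP.572 libraries below all others, while scramble and shCREBBP.1027 overlapped. The mean of 3.21 ± 0.409 FPKM with shCREBBP.3753 was 1.94-fold the scramble mean of 1.65 ± 0.505 FPKM (log2 difference 0.68 ± 0.19, SE; limma adjusted p = 0.018; 95% interval 0.27 to 1.09). With shCREBBP.572 the mean was 0.869 ± 0.288 FPKM, and the difference of -0.50 ± 0.19 missed the threshold (limma adjusted p = 0.0837) although the libraries did not overlap with scramble. For shCREBBP.1027 it was 0.21 ± 0.19 (limma adjusted p = 0.414), and the average over hairpins was 0.13 ± 0.15 (limma adjusted p = 0.573).

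Between hairpins, FAS was lower with shCREBBP.572 than with shCREBBP.3753 by -1.18 (limma adjusted p = 5.9e-04) and than with shCREBBP.1027 by -0.71 (adjusted p = 0.0101). The difference of 0.47 between shCREBBP.3753 and shCREBBP.1027 was not called (adjusted p = 0.0629), but 3 alternative fits called it, with an adjusted p down to 0.0153. The rise with shCREBBP.3753 was no longer called without scramble replicate 3 (0.56, adjusted p = 0.0559) or without shCREBBP.3753 replicate 3 (0.60, adjusted p = 0.078). The fall with shCREBBP.572 was called with array weights (-0.64, adjusted p = 0.0152) and without a variance trend (adjusted p = 0.044). The summed B-cell markers were likewise highest with shCREBBP.3753 (465 to 497 FPKM) and lowest with shCREBBP.572 (291 to 308 FPKM); their part in the FAS values was not tested. All libraries came from the MD901 line, and in bulk RNA a change in every cell and a change in some cells cannot be told apart. ACTA2 lies on the opposite strand and overlaps FAS. There were 5 rows named ACTA2 and 1 named FAS-AS1 that lay within or across the interval of FAS, with group means of 0.142 to 2.25 FPKM, so reads may have been divided among these rows and FAS is uncertain to that extent.

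TNFRSF13B (TACI), a receptor for the survival factors BAFF and APRIL, fell. Its locus (chr17:16838079-16875458 on hg19) held 13, 18.9 and 20.2 FPKM with scramble and 9.42, 11.9 and 11.6 FPKM with shCREBBP.1027. It held 6.94, 7.04 and 7.95 FPKM with shCREBBP.3753 and 12.2, 13.7 and 11.9 FPKM with shCREBBP.572. Libraries with shCREBBP.1027 or shCREBBP.3753 were all below scramble, whereas 1 shCREBBP.572 library exceeded the lowest scramble library. The shCREBBP.3753 mean of 7.31 ± 0.556 FPKM was 0.421 of the scramble mean of 17.4 ± 3.85 FPKM (log2 difference -1.12 ± 0.14, SE; limma adjusted p = 2.6e-04). For shCREBBP.1027 the mean was 11 ± 1.35 FPKM and the difference -0.60 ± 0.14 (limma adjusted p = 0.00673). For shCREBBP.572 the mean was 12.6 ± 0.937 FPKM and the difference of -0.41 ± 0.14 missed the threshold (limma adjusted p = 0.0679).

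TNFRSF13B was lower with shCREBBP.3753 than with either other hairpin, by -0.52 against shCREBBP.1027 (limma adjusted p = 0.0136) and with 0.71 between shCREBBP.572 and shCREBBP.3753 (adjusted p = 0.0031). The difference of 0.19 between shCREBBP.572 and shCREBBP.1027 was not called (adjusted p = 0.331; 95% interval -0.13 to 0.505). The average over hairpins was -0.71 ± 0.12 (SE; limma adjusted p = 0.0014; exact permutation p = 0.0182), and its call was lost with the 9 hairpin libraries as 1 group (adjusted p = 0.0968). Scramble replicate 1, at 13 FPKM, lay nearest to the hairpin libraries. Without it the shCREBBP.572 difference was called (-0.60, adjusted p = 0.00213). It was also called with array weights (-0.56, adjusted p = 0.0013) and when fitted with the replicate number as a block (adjusted p = 0.0342). The difference between shCREBBP.3753 and shCREBBP.1027 was no longer called without shCREBBP.1027 replicate 2 (adjusted p = 0.051).

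CD58 (LFA-3), the ligand of CD2 and the adhesion molecule of the set, had the highest mean of the members over the 12 libraries, although TNFRSF13B had the higher mean with scramble. Its locus (chr1:117047684-117113715 on hg19) held 14.3, 14.7 and 17.2 FPKM with scramble and 16.8, 18.5 and 15.3 FPKM with shCREBBP.1027. It held 8.48, 11.9 and 12.1 FPKM with shCREBBP.3753 and 16.2, 16.3 and 14.2 FPKM with shCREBBP.572. All 3 shCREBBP.3753 libraries were below every scramble library, and the other hairpin groups overlapped with scramble. The shCREBBP.3753 mean of 10.8 ± 2.04 FPKM was 0.701 of the scramble mean of 15.4 ± 1.56 FPKM (log2 difference -0.49 ± 0.13, SE; limma adjusted p = 0.0152; 95% interval -0.769 to -0.204). This call was lost without shCREBBP.3753 replicate 1, the lowest library (-0.34, adjusted p = 0.0506), and when only the 2 groups compared were fitted (adjusted p = 0.0681).

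The other hairpins gave small differences from scramble at CD58. With shCREBBP.1027 the mean was 16.9 ± 1.63 FPKM and the difference 0.12 ± 0.13 (SE; limma adjusted p = 0.493). With shCREBBP.572 the mean was 15.5 ± 1.18 FPKM, and the difference of 0.01 (limma adjusted p = 0.966) had a 95% interval from -0.271 to 0.294. Between hairpins, shCREBBP.3753 was lower than shCREBBP.1027 by -0.61 (limma adjusted p = 0.00298), and shCREBBP.572 exceeded shCREBBP.3753 by 0.50 (adjusted p = 0.0117). The difference of -0.11 between shCREBBP.572 and shCREBBP.1027 was not called (adjusted p = 0.533). The average over hairpins was -0.12 ± 0.11 (limma adjusted p = 0.444).

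**Figure D2:**
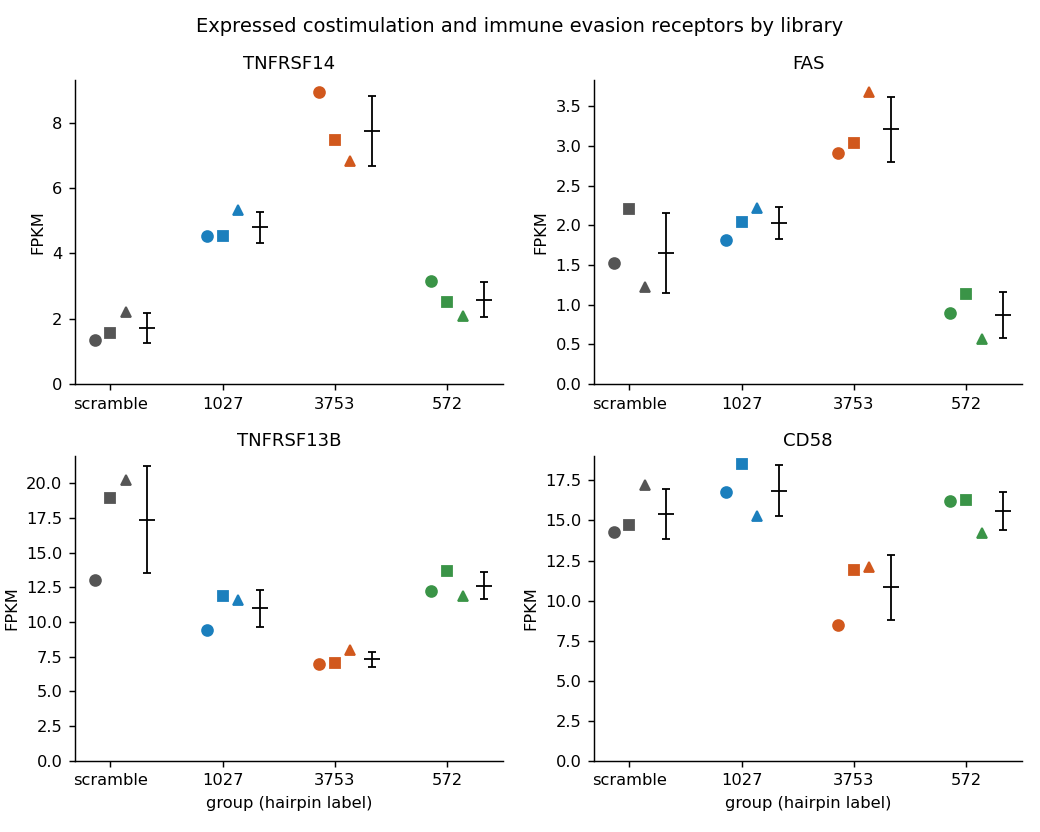
FPKM per library of TNFRSF14, FAS, TNFRSF13B and CD58 in the 4 groups, each panel with its own vertical axis from 0; marker shapes are replicates 1 to 3 (circle, square, triangle) and the black bar to the right of each group is its mean ± SD (n = 3). TNFRSF14 and FAS reach their highest values (up to 8.93 and 3.68 FPKM) and TNFRSF13B and CD58 their lowest (6.94 and 8.48 FPKM) in libraries labelled shCREBBP.3753.

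Among the B7 ligands, the pair that binds CD28 and CTLA4 was near 0. CD80 (chr3:119243140-119278481 on hg19) held 0.0634, 0.136 and 0.0175 FPKM with scramble and 0.201, 0.446 and 0.214 FPKM with shCREBBP.1027. It held 0.301, 0.13 and 0.0726 FPKM with shCREBBP.3753 and 0.1, 0 and 0.132 FPKM with shCREBBP.572. All shCREBBP.1027 libraries were above scramble, a split for which the exact permutation p is 0.1, and the other groups overlapped with scramble. CD80 overlaps TIMMDC1 on the opposite strand, whose mean of 36.9 FPKM was far higher, so the low CD80 values are uncertain where strand was not used. CD86 (chr3:121774209-121839988 on hg19) was listed at 0, 0 and 0.0917 FPKM with scramble and at 0 in all shCREBBP.572 libraries. It held 0.133, 0.245 and 0.249 FPKM with shCREBBP.1027 and 0.0368, 0.151 and 0.141 FPKM with shCREBBP.3753. The shCREBBP.1027 libraries were thus above all scramble and all shCREBBP.572 libraries (exact permutation p = 0.1 for each). With no filter on low rows, CD86 was called higher with shCREBBP.1027 than with scramble (0.23, limma adjusted p = 0.013), and shCREBBP.572 was below shCREBBP.1027 (-0.27, adjusted p = 0.0048). These calls rest on values near 0, in fits that called 4463 and 4769 of 21602 rows.

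The PD-1 ligands were near 0 in most libraries. CD274 (chr9:5450503-5470567 on hg19) held 0.104, 0.0635 and 0.229 FPKM with scramble and 0.191, 0.091 and 0.148 FPKM with shCREBBP.1027. It held 0.103, 0.0795 and 0 FPKM with shCREBBP.3753 and 0, 0.0398 and 0.054 FPKM with shCREBBP.572. The shCREBBP.572 libraries were below all scramble libraries (exact permutation p = 0.1), and the others overlapped with scramble. PDCD1LG2 (chr9:5510545-5571282 on hg19) stood on 2 rows with the same interval. The row with the higher mean held 16.4, 0 and 0 FPKM with scramble, 0, 0 and 2.39 FPKM with shCREBBP.1027, and 0 in every library of the other hairpins. It passed the filter only through scramble replicate 1, and its averaged difference of -1.18 ± 0.76 was not called (limma adjusted p = 0.281). The other PDCD1LG2 row held 0.691, 0.0627 and 0 FPKM with scramble and 0.23, 0.188 and 0.164 FPKM with shCREBBP.1027. It held 0.0363, 0.112 and 0 FPKM with shCREBBP.3753 and 0 FPKM in all shCREBBP.572 libraries. An exact 0 can be a failed estimate. Scramble replicate 1 was the highest library on both rows.

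The remaining TNF receptors, CD40 and TNFRSF13C, were also low. CD40, the receptor for CD40 ligand on helper T cells, was listed (chr20:44746906-44758384 on hg19) at 0.117, 0.101 and 0.162 FPKM with scramble and at 0 in all libraries of shCREBBP.1027 and shCREBBP.572. Libraries labelled shCREBBP.3753 held 0.0584, 0 and 0.0446 FPKM. All 3 scramble libraries were above all 9 hairpin libraries (exact permutation p = 0.00909, the smallest this test allows), at levels far under the filter of 1 FPKM. That test takes the 9 libraries of 3 hairpins as alike, and 7 of the 12 values were 0. How many rows of the table separate in this way was not counted. Without the filter, the averaged difference of CD40 was -0.16 (limma adjusted p = 0.00242), with -0.17 for shCREBBP.1027 (adjusted p = 0.00205), -0.12 for shCREBBP.3753 (adjusted p = 0.019) and -0.17 for shCREBBP.572 (adjusted p = 0.00506). The number of reads behind these values is unknown. TNFRSF13C (BAFF receptor), for which the interval was chr22:42321036-42322821 on hg19, held 0.52, 0.0897 and 0.979 FPKM with scramble and 0.655, 0.153 and 0 FPKM with shCREBBP.1027. It held 0.155, 0.371 and 0.316 FPKM with shCREBBP.3753 and 0.247, 0.556 and 1.08 FPKM with shCREBBP.572, and all groups overlapped.

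**Figure D3:**
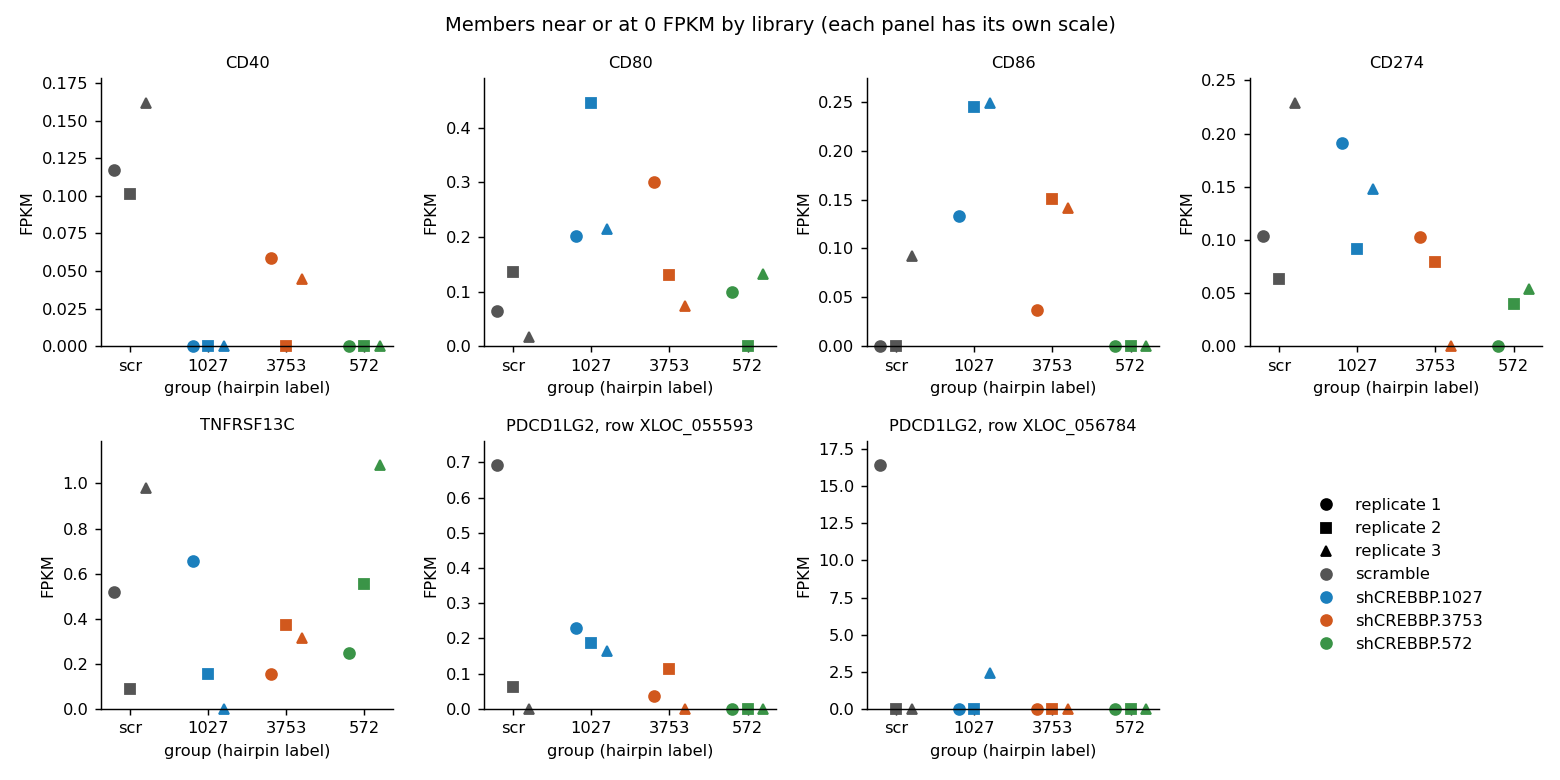
FPKM per library of the members near or at 0, with both PDCD1LG2 rows, 1 panel per row and each with its own vertical axis from 0; colours are groups and marker shapes are replicates. CD40 lies at 0.101 to 0.162 FPKM in scramble libraries and at most at 0.0584 FPKM elsewhere, and PDCD1LG2 row XLOC_056784 has values above 0 in 2 libraries.

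Genes of the same pathways were read from 8 lists, beside a median log2 difference of -0.003 over all 11757 tested rows in the average of the hairpins, of which 11.5% were called higher and 14.6% lower. With lists this small, each count is given to be read against those shares. Of 29 symbols listed for other B7 family and checkpoint genes, which include 2 names for 1 gene, 10 were tested, 2 were higher and 4 lower, with a median of -0.196. ICOSLG, the ligand of ICOS, was lower (-0.62 ± 0.16, SE; limma adjusted p = 0.0165), from 5.09 ± 1.8 FPKM with scramble to 2.42 ± 0.403 with shCREBBP.3753 and 1.92 ± 0.103 with shCREBBP.572, while shCREBBP.1027 held 4.81 ± 0.985. Its averaged call was lost without scramble replicate 1 (-0.40, adjusted p = 0.0682). In the average, BTN3A2, a butyrophilin, was lower (-0.58 ± 0.086; adjusted p = 7.7e-04), and NCR3LG1 (B7-H6), the ligand of the natural killer receptor NKp30, was higher (0.55 ± 0.095; adjusted p = 0.00177). BTN3A2 was not called with shCREBBP.3753 (-0.251, adjusted p = 0.0949), nor NCR3LG1 with shCREBBP.572 (0.308, adjusted p = 0.0882).

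Of 22 other TNF receptors, 10 were tested, 2 were higher and 1 lower, with a median of -0.122. The decoy receptor TNFRSF10D was higher (0.59 ± 0.15, SE; limma adjusted p = 0.014), as was the death receptor TNFRSF10B (0.23 ± 0.067; adjusted p = 0.0275), whose call was lost without scramble replicate 2 (0.17, adjusted p = 0.126) or scramble replicate 3 (0.22, adjusted p = 0.0832). TNFRSF10B held 12.9 ± 0.336 FPKM with shCREBBP.3753 against 7.9 ± 0.783 with scramble, and 8.37 ± 0.0409 and 7.65 ± 0.635 with shCREBBP.1027 and shCREBBP.572. The row of the FAS ligand decoy TNFRSF6B, which it shares with RTEL1, was lower in the average (-0.53 ± 0.12; adjusted p = 0.00828). With shCREBBP.572, neither TNFRSF10D (0.407, adjusted p = 0.147) nor the row of TNFRSF6B (-0.255, adjusted p = 0.266) was called. Of 16 TNF ligands, 4 were tested and 1, the row of TNFSF12 with TNFSF13, was higher (0.49 ± 0.16; adjusted p = 0.0384), with a median of -0.0434. TNFSF13 encodes APRIL, a ligand of TNFRSF13B, and the 2 genes of that row cannot be told apart. The TNFSF12 call was lost in 9 of the 12 fits without 1 library, with an adjusted p of up to 0.135. The fits without scramble replicate 1, shCREBBP.1027 replicate 2 or shCREBBP.3753 replicate 3 kept it. Among single hairpins, TNFSF12 was called only with shCREBBP.1027 (0.79, limma adjusted p = 0.00674). With shCREBBP.3753 (0.256, adjusted p = 0.334) and shCREBBP.572 (0.42, adjusted p = 0.151) it was not.

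All 19 genes of the TRAF and NF-kappaB-inducing kinase pathway, which acts below CD40, TNFRSF13B and TNFRSF13C, were tested. In the average 5 were higher and 4 lower (median -0.007). BIRC3, an inhibitor of NF-kappaB-inducing kinase within the TRAF complex, was higher (0.76 ± 0.075, SE; limma adjusted p = 4.9e-05), with 13.1 ± 0.977 FPKM in scramble, 25.1 ± 1.58 with shCREBBP.1027, 29.7 ± 1.61 under shCREBBP.3753 and 16.1 ± 1.92 under shCREBBP.572. The last of these was not called on its own (0.28, adjusted p = 0.0568). NFKB2, the p100 precursor, was higher (0.50 ± 0.075; adjusted p = 8.1e-04) and so was TANK, a TRAF-binding protein (0.44 ± 0.13; adjusted p = 0.0232). TANK held 24.8 and 25.3 FPKM with shCREBBP.1027 and shCREBBP.3753 against 15.4 with scramble, but 14.4 FPKM with shCREBBP.572 (-0.06, adjusted p = 0.815). Per hairpin, the list had 6 higher and 3 lower with shCREBBP.1027, 7 and 4 with shCREBBP.3753, and 1 and 1 with shCREBBP.572. Over all tested rows, 16.5% were higher and 22.7% lower with shCREBBP.1027, and 16.1% and 13.2% with shCREBBP.3753. With shCREBBP.572, 1057 of 11757 rows were higher and 1266 lower.

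Of 15 genes of the death receptor pathway below FAS, 14 were tested, with 3 higher and 1 lower in the average and a median of 0.135. CASP10, an initiator caspase, was higher (0.58 ± 0.13, SE; limma adjusted p = 0.00643), from 1.75 ± 0.157 FPKM with scramble to 3.06 ± 0.344 with shCREBBP.1027. It held 3.48 ± 0.562 FPKM under shCREBBP.3753 and 2.9 ± 0.671 FPKM under shCREBBP.572. XIAP, a caspase inhibitor, was lower (-0.38 ± 0.064; adjusted p = 0.00155), with 5.97 FPKM under both shCREBBP.1027 and shCREBBP.572 against 9.48 with scramble and 9.74 with shCREBBP.3753. RIPK1, a kinase of the receptor complex, was higher in the average (0.34 ± 0.099; adjusted p = 0.0276). That call was lost without scramble replicate 1 (0.29, adjusted p = 0.0861) or replicate 3 (0.27, adjusted p = 0.112) and with array weights (0.19, adjusted p = 0.119). Among single hairpins, RIPK1 was called only with shCREBBP.3753 (0.89, limma adjusted p = 3.7e-04), at 13.1 FPKM against 6.62 with scramble. It was not called with shCREBBP.1027 (-0.09, adjusted p = 0.574) or shCREBBP.572 (0.22, adjusted p = 0.243).

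Of 15 genes known to set CD274 levels, 14 were tested, with 2 higher and 1 lower in the average and a median of 0.105. The hairpins gave different counts: 2 higher and 2 lower with shCREBBP.1027 (median -0.0395), 6 higher and 1 lower with shCREBBP.3753 (median 0.287), and 0 higher and 4 lower with shCREBBP.572 (median -0.143). Of all tested rows, 16.5% were higher and 22.7% lower with shCREBBP.1027, and 16.1% and 13.2% with shCREBBP.3753. For shCREBBP.572 these were 1057 and 1266 of 11757 rows. HIP1R, which directs PD-L1 to lysosomes, was lower with every hairpin (-0.72 ± 0.069 in the average, SE; limma adjusted p = 4.1e-05). IRF1, the interferon-induced factor that drives CD274, averaged 0.28 ± 0.067 (adjusted p = 0.0117), but was higher with shCREBBP.1027 (0.60, adjusted p = 1.9e-04) and shCREBBP.3753 (0.50, adjusted p = 0.00114) and lower with shCREBBP.572 (-0.28, adjusted p = 0.0366). STAT3 had the same pattern, with 0.48 (adjusted p = 5.2e-04), 0.35 (adjusted p = 0.00595) and -0.24 (adjusted p = 0.0494). The averaged call of IRF1 was lost without scramble replicate 2 or 3 (adjusted p of 0.0511 and 0.0551). The averaged call of STAT3 (0.20 ± 0.063; adjusted p = 0.0381) was lost in 10 of 12 fits without 1 library, all but those without scramble replicate 2 or shCREBBP.572 replicate 2. CD274 itself stayed at or under 0.229 FPKM in all 12 libraries.

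Of 20 symbols listed for neighbours of CD274 and PDCD1LG2 on 9p24, which include 2 names for some genes, 18 had a row and 13 were tested. SLC1A1, INSL6 and RLN2 were listed at 0 in all 12 libraries. The tested genes included SPATA6L, which was at 0 in 10 libraries. In the list, 5 were higher and 0 lower in the average, with a median of 0.194. With shCREBBP.1027, 3 were higher and 1 lower, where 16.5% and 22.7% of all tested rows were. With shCREBBP.3753, 6 were higher and 0 lower, against 16.1% and 13.2% of rows. With shCREBBP.572, 1 was higher and 0 lower, against 1057 and 1266 of 11757 rows. PPAPDC2 (0.48 ± 0.11, SE; limma adjusted p = 0.0102) and RANBP6 (0.46 ± 0.097; adjusted p = 0.00554) were higher in the average. RANBP6 was not called with shCREBBP.572 (0.345, adjusted p = 0.0632). CDC37L1 was higher in the average (0.38 ± 0.12; adjusted p = 0.0418), but that call was lost in 8 of 12 fits without 1 library. Those fits left out any scramble library, any shCREBBP.3753 library, or shCREBBP.572 replicate 1 or 2. Among single hairpins, CDC37L1 was called only with shCREBBP.3753 (0.81, limma adjusted p = 0.00238). With shCREBBP.1027 (0.15, adjusted p = 0.479) and shCREBBP.572 (0.18, adjusted p = 0.45) it was not. Of 15 genes listed for adhesion and contact with T and natural killer cells, which include the CD58 receptor CD2, 7 were tested. In the average 3 were higher and 2 lower, with a median of 0.0765. In the average, ICAM2 was lower (-0.63 ± 0.15, limma adjusted p = 0.00955) and ICAM3 higher (0.40 ± 0.094, adjusted p = 0.01), both ligands of the integrin LFA-1. ICAM2 was not called with shCREBBP.572 (-0.456, adjusted p = 0.104), nor ICAM3 with shCREBBP.1027 (0.0683, adjusted p = 0.679). ICAM1, another LFA-1 ligand of the list, was higher in the average (0.37 ± 0.066, adjusted p = 0.00201) but not with shCREBBP.572 (-0.17, adjusted p = 0.176). ITGB2, the beta chain of LFA-1, was lower in the average (-0.49 ± 0.12; adjusted p = 0.0112, and 0.0544 without scramble replicate 2), with 0.624 ± 0.0901 FPKM under shCREBBP.572 against 2.92 ± 0.212 under scramble and 2.25 ± 0.209 and 3.13 ± 0.542 under shCREBBP.1027 and shCREBBP.3753. ITGAL, the alpha chain of LFA-1, was not tested and stayed at or under 0.311 FPKM in all 12 libraries. With the 9 hairpin libraries fitted as 1 group, only 206 rows of the table were called in the average, and none of the 22 genes named by rule from these lists was among them. Without the filter on low rows, the averaged calls of TNFRSF10B, TNFSF12, RIPK1, STAT3 and CDC37L1 were lost (adjusted p of 0.0535 to 0.091). STAT3 was not called with array weights (0.13, adjusted p = 0.1), nor CDC37L1 without a variance trend (adjusted p = 0.0532).

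**Figure D4:**
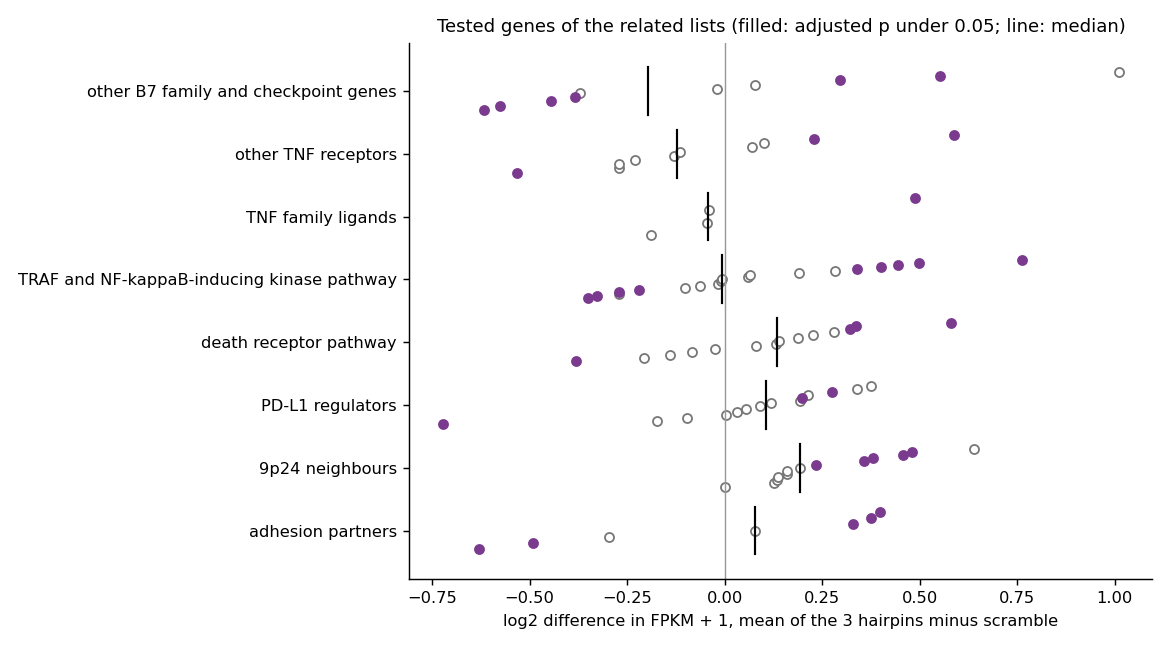
Averaged log2 difference in FPKM + 1 between the 3 hairpins and scramble for the tested genes of the 8 related lists, 1 point per gene, filled where the limma adjusted p was under 0.05, with the list median as a vertical line. Medians run from -0.196 for the other B7 family and checkpoint genes to 0.194 for the 9p24 neighbours, and most lists hold called genes on both sides of 0.

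As a description of likeness over the 12 libraries, 10829 tested rows were ranked by Pearson's r with each member on log2(FPKM + 1). The libraries of a group share a hairpin, so these values follow the 4 group levels. TNFRSF14 was most like CALCOCO1 (r = 0.977, Spearman's rho = 0.951) and IFI27L2 (r = 0.972, rho = 0.944). FAS was most like AP1S3 (r = 0.965, rho = 0.979) and CD72 (r = 0.936, rho = 0.979), a B-cell co-receptor that held 24.9 ± 5.26 FPKM with scramble, 27.8 ± 0.659 with shCREBBP.1027, 51.5 ± 1.27 under shCREBBP.3753 and 15.2 ± 0.979 under shCREBBP.572. TNFRSF13B was most like LBR (r = 0.954, rho = 0.958) and CHEK1 (r = 0.953, rho = 0.979), and CD58 was most like F8A1 (r = 0.934, rho = 0.832) and AUNIP (r = 0.929, rho = 0.874). For PDCD1LG2, ATP2A2 (r = 0.894, rho = 0.532) and CBFA2T3 (r = 0.893, rho = 0.591) led a ranking that rests on scramble replicate 1.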

How the data were processed

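Total RNA over 200 nt from MD901 cells was sequenced with a stranded kit and removal of ribosomal RNA, per the labels' protocols. The authors deposited 1 table of 24181 rows for the 12 libraries; its unit was taken to be FPKM, fragments per length and depth, since the submitters' processing notes name Cufflinks, with CASAVA 1.8, TopHat2 and hg19. The header does not state the unit, and neither the annotation nor the use of strand is given in the sources used here. Reads per library are unknown from FPKM. Depth relative to scramble replicate 1, read from steps between low values, was 1.11 to 2.01, with no clear step for scramble replicate 3. Several names stood on 725 rows.

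The members and all gene lists were chosen with earlier results of these data known. The 11757 rows whose mean reached 1 FPKM were fitted as log2(FPKM + 1) with limma 3.58.1 in R 4.3.3 (group means, variance trend), adjusted by Benjamini-Hochberg over these rows per contrast, threshold 0.05. Exact permutation tests (scipy 1.17.1) were two-sided. The fit was tested on simulated data. All 10 members are named. From each list the up to 3 called genes with the largest averaged difference are named, and for each tested member the 2 rows with the highest Pearson r, leaving out rows with a value of 0 and small RNA genes. ICAM1 and ITGAL were added beside the LFA-1 genes named by this rule. Coordinates on hg19 are intervals of assembled loci, counted from 1. Alternatives are described at the end.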

Additional observations from a re-analysis of the deposited data

Results flagged for a closer look

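For 4 members, the response to the hairpins differed between the hairpins by a test of the difference itself, limma's F test of the 3 hairpin group means against each other. The adjusted p was 1.3e-04 for TNFRSF14, 8.2e-04 for FAS, 0.00376 for TNFRSF13B and 0.00398 for CD58. FAS was higher than scramble with shCREBBP.3753 (0.68 on the log2 scale) and its value with shCREBBP.572 was -0.50, while TNFRSF14 kept a value above 0 and TNFRSF13B one below 0 with each hairpin. In the table as a whole 56.4% of tested rows differed between the hairpins. CREBBP RNA also differed between libraries of the hairpins, by -0.87 for shCREBBP.3753 minus shCREBBP.1027 (adjusted p = 0.00678) and -0.61 for shCREBBP.572 minus shCREBBP.1027 (adjusted p = 0.0385), and its part in these values was not tested. Groups of 3 libraries were not tested for outlying libraries.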

How the results depend on the processing

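The fits were repeated with a pseudocount of 0.1, no filter, a filter of 5 FPKM, quantile and upper quartile scaling, the sum of the rows of a member, array weights, robust eBayes, no variance trend, a replicate block, only the groups compared, and without each of the 12 libraries in turn. Of the alternative values for single genes, 1382 kept direction and call, 73 lost a call, 13 gained one and 11 changed sign. The numbers of members called were as follows where they moved by over 1.5 times. In the average, 1 was called at 5 FPKM and 0 with the 9 hairpin libraries as 1 group, against 2. Over all rows, these fits called 2742 of 8210 and 206 of 11757, against 3060 of 11757. With shCREBBP.1027, 4 were called without a filter (CD40 and CD86 added) and 1 at 5 FPKM, against 2. Over all rows, there were 4463 calls of 21602 without a filter and 3935 of 8210 at 5 FPKM, against 4609 of 11757. With shCREBBP.3753, 2 were called at 5 FPKM, against 4, where calls over all rows were 3082 of 8210, against 3451 of 11757. With shCREBBP.572, against 0, there was 1 without a filter (CD40), 3 with array weights, 1 without the trend and 0 to 1 without single libraries (TNFRSF13B without scramble replicate 1, TNFRSF14 without scramble replicate 3). All rows gave 1908 calls of 21602 without a filter, 3726 of 11757 with array weights and 2230 without the trend, against 2323. Without scramble replicate 1 they gave 2968 of 11649, and without scramble replicate 3, 2067 of 11746. At 5 FPKM, shCREBBP.572 minus shCREBBP.1027 called 0, shCREBBP.572 minus shCREBBP.3753 called 2 and the F test 2, since TNFRSF14, FAS and PDCD1LG2 are then not tested. Of the 8210 rows tested at 5 FPKM, these called 4130, 3333 and 5542, against 4876, 3837 and 6631 of 11757. Without single libraries, the average, shCREBBP.1027 and shCREBBP.572 minus shCREBBP.1027 each called 2 members, shCREBBP.3753 called 3 to 4, shCREBBP.3753 minus shCREBBP.1027 called 2 to 3, and shCREBBP.572 minus shCREBBP.3753 and the F test called 4. Over all rows, those fits called 2412 to 3319 in the average, 3725 to 5125 with shCREBBP.1027 and 2341 to 3572 with shCREBBP.3753. They called 3867 to 5793 for shCREBBP.3753 minus shCREBBP.1027 and 4053 to 5898 for shCREBBP.572 minus shCREBBP.1027. For shCREBBP.572 minus shCREBBP.3753 the calls were 2903 to 4945, and for the F test 5820 to 7757.

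The replicate numbers did not pair the libraries: of 18 correlations between deviations of same-numbered libraries, from -0.06 to 0.127, 2 were over 0.1. With the replicate block, 1 member was called with shCREBBP.572 (TNFRSF13B, adjusted p = 0.0342), against 0, and the other counts moved by less than 1.5 times. Over all rows, 2293 were called with that hairpin in the block fit, against 2323.

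Signs changed for CD58, FAS, PDCD1LG2 and CREBBP. CD58 with shCREBBP.572 ran from -0.0363 (without scramble replicate 1) to 0.0878 over the fits without 1 library, and was also below 0 without scramble replicate 2 (-0.0174) and without shCREBBP.572 replicate 1 (-0.0176) or 2 (-0.0203). With array weights the averaged FAS difference was -0.0349, the PDCD1LG2 differences were 0.0775 in the average, against -1.18, and 0.56 with shCREBBP.1027, against -0.79, and CREBBP was 0.21 in the average and 0.11 with shCREBBP.572. Without scramble replicate 1, which held the highest CREBBP value, CREBBP was 0.303 in the average (adjusted p = 0.017) and 0.188 with shCREBBP.572; over the fits without 1 library these ran down to -0.251 and -0.367. CREBBP with shCREBBP.1027 was called with array weights (0.70, adjusted p = 2.2e-04) and without scramble replicate 1 (0.80, adjusted p = 7.3e-05), and with shCREBBP.3753 without scramble replicate 3 (-0.63, adjusted p = 0.0306). Array weights gave scramble replicate 1 a weight of 0.1356. The causes were not tested. Low members cannot be given counting intervals, because reads per library are unknown.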

Other observations

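CD70, the ligand of the TNF receptor CD27, was the most abundant of the 4 tested TNF ligands and was singled out after its values were seen. It held 73.1 ± 7.27 FPKM (SD, n = 3) with scramble, 61.3 ± 4.66 with shCREBBP.1027, 116 ± 6.13 under shCREBBP.3753 and 50.4 ± 8.14 under shCREBBP.572. Its log2 difference was 0.66 with shCREBBP.3753 (limma adjusted p = 0.00152) and -0.54 with shCREBBP.572 (adjusted p = 0.00711), and the F test between hairpins gave an adjusted p of 1.8e-05. The averaged difference of -0.04 was not called (adjusted p = 0.784).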
